A study of Mus musculus with 32 samples.

Results

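The genes described here are 46 genes of mitosis and the kinetochore, chosen by name, and all 46 were found among the 23517 genes of the mouse count table. They were read in Lgr5-EGFP+ cells, the stem and progenitor cells of the colonic crypt, sorted from colonoids, which are epithelial organoids grown from crypts of the proximal colon. All colonoids came from Lgr5-EGFP-IRES-CreERT2 mice and grew in L-WRN medium, a conditioned medium that supplies Wnt, R-spondin and Noggin. The EGFP is driven from the Lgr5 locus, so the sort itself kept cells in which this locus was active, and the labels name no agent that would induce the CreERT2. Per mouse, colonoids were either left untreated (UT) or received bethanechol (Bch), an agonist of the muscarinic acetylcholine receptors without subtype selectivity, at 250 nM in fresh medium on each of 4 days. There were 4 UT and 4 Bch samples from the mice BR1 to BR4, and 4 UT and 4 Bch samples from the mice BR7 to BR10, and the labels give no age. BR1 to BR4 are labelled male, with sorted Lgr5+ cells as the source and the RNeasy Plus Micro kit, whereas BR7 to BR10 carry no sex label, with colonic organoids as the source and the RNeasy Mini kit. The series as a whole is described as 4 female and 4 male mice, and sex, kit and source cannot be told apart between the sets.

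Mitosis begins when Cdk1, bound to cyclin B and helped by Plk1 and Aurka, drives condensation of the chromosomes and assembly of the spindle. Each sister chromatid carries a kinetochore, which is built on centromeres marked by the histone Cenpa, and whose NDC80 complex of Ndc80, Nuf2, Spc24 and Spc25 grips the spindle microtubules. A checkpoint of Bub1, Bub3, Mad2l1 and Ttk holds back Cdc20 until all chromosomes are attached, after which the anaphase-promoting complex, with its ubiquitin-conjugating enzyme Ube2c, destroys cyclin B and securin (Pttg1). In the colonic crypt, this programme runs in stem and transit-amplifying cells and is shut off as cells differentiate, and most of its genes are transcribed shortly before mitosis.

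The promoters of such genes are known for the cell cycle genes homology region (CHR), through which the MuvB complex acts, and for CCAAT boxes, bound by NF-Y, and both could be counted here in RefSeq promoters of 250 bases before to 50 bases after each start (GRCm38.p6). The letters TTTGAA or TTCGAA stood for the CHR and CCAAT for the CCAAT box, each on both strands, and the letters of these motifs can share an end base. Of the 46 genes, 38 had a promoter in the table, and 30 of these (78.9%) held a CHR, 29 (76.3%) a CCAAT box and 26 (68.4%) both. Over 12537 genes of the count table with a promoter, the shares were 17.4%, 42.7% and 7.33%. The 37 genes with a promoter in a list of S phase genes were closer to the whole table, with 21.6%, 54.1% and 13.5%, whereas 57 further mitosis genes held 63.2%, 64.9% and 43.9%. The 150 bases before the start of 6 of the genes are printed to show this shared layout and where it is missing, 5′ to 3′ along the gene, with CHR and CCAAT letters of either strand in capitals.
Cdk1 (chr10:69352913-69353062, minus strand): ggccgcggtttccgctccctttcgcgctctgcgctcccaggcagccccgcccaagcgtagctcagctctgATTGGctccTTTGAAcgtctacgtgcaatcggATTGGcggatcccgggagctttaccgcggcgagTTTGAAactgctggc
Top2a (chr11:99024190-99024339, minus strand): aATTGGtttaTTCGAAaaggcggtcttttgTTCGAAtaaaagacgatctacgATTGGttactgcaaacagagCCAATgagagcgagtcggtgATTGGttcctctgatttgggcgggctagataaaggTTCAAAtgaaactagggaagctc
Cdc20 (chr4:118437344-118437493, minus strand): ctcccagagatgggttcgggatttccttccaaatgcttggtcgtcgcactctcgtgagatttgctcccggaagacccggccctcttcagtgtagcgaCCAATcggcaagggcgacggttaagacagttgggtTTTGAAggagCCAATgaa
Prc1 (chr7:80294326-80294475, plus strand): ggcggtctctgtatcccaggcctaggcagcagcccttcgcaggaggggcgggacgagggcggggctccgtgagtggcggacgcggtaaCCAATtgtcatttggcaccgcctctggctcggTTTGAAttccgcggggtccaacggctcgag
Spc25 (chr2:69206214-69206363, minus strand): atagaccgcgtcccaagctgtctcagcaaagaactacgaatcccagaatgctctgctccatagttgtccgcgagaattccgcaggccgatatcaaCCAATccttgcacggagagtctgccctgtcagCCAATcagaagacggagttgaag
Ndc80 (chr17:71526858-71527007, minus strand): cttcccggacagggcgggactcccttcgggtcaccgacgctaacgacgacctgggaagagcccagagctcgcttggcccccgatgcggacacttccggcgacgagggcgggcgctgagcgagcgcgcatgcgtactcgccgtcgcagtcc
In Cdk1, Top2a, Cdc20 and Prc1 a CHR lay within 30 bases of the start, at -15, -23, -18 and -30 for its base farthest upstream, and 1 or more CCAAT boxes lay farther upstream of it. Spc25 had 2 CCAAT boxes in the stretch shown and its CHR letters behind the start, at 25. Ndc80 had neither motif before its start and CHR letters at 30 behind it. These matches describe letters in a window and not sites that were measured.

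Each mouse and treatment was sequenced as 2 technical replicates (TR1 and TR2), 32 libraries in all, and each unique molecular identifier (UMI) tags 1 cDNA molecule at its 3′ end. The replicates of a sample differed by less than counting noise once each gene's own TR1 to TR2 ratio was allowed for, with a median variance of 0.455 times that noise over 3681 genes and 0.383 times over 25 of the mitosis genes. They were therefore summed and counted as 1 sample. The 16 sums held 557512 UMIs in UT BR3 and between 1066102 and 4050342 in the others, and 3000 cells were sorted for most samples, with 13114 for UT BR1. Nothing in the labels ties the mice of a set to different culture batches, so the p-values measure the spread between these mice and their cultures. Lgr5 was present in all 16 sums at 12.4 to 38.6 CPM (UMIs of a gene per 1000000 UMIs, scaled with TMM factors), and 13 of 15 stem cell markers passed the filter on low counts. With Bch the edgeR log2 fold change of Lgr5 was -0.66 ± 0.23 (SE) in BR1 to BR4. In BR7 to BR10 it was 0.49 ± 0.24, a difference of -1.15 ± 0.32. In UT samples Lgr5 was 0.87 ± 0.24 higher in BR1 to BR4. The unadjusted edgeR p-values were 0.006, 0.044, 0.001 and 0.001, but none passed after adjustment (smallest adjusted p 0.059). The part of these differences in the mitosis values was not tested. Markers of fibroblasts summed to at most 8.37 CPM and markers of leukocytes to at most 8.97 CPM, whereas 12 goblet cell markers summed to between 3566 and 14260 CPM.

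Together the 46 genes made up a small and similar part of the RNA in all groups. Their summed level was 2980 ± 393 CPM (SD, n = 4) in UT BR1 to BR4 and 2836 ± 486 with Bch, and it was 3200 ± 436 in UT BR7 to BR10 and 3053 ± 246 with Bch. The difference between UT and Bch was thus smaller than the SD between mice in both sets. That SD sets the pairing aside, and within a mouse the summed level with Bch was between 0.814 and 1.05 times that of UT. In bulk RNA, fewer dividing cells and less of these transcripts per dividing cell cannot be told apart.

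Because 1 UMI stands for 1 transcript whatever its length, UMI levels of different genes could be set side by side. Birc5 (survivin), a subunit of the chromosomal passenger complex, was the most abundant of the 46 with a mean level of 230.3 CPM over the 16 sums, followed by Cdk1 with 212 and the checkpoint subunit Bub3 with 209. Cenpa with 175, the anaphase enzyme Ube2c with 148, the decatenating enzyme Top2a with 128 and the spindle protein Nusap1 with 67.6 CPM led their role groups, as did Prc1, which bundles the central spindle at cytokinesis, with 42.6. At the lower end stood the checkpoint kinase Ttk with 7.63 and Kif2c, a kinesin that takes microtubules apart, with 7.67 CPM. Birc5 ranged from 167 to 318 CPM over the sums and Cdk1 from 175 to 261, so that these neighbours overlapped. Bub3 varied least, by 1.45 times between its lowest and highest sum, and Ttk most, by 14.4 times, on as few as 2 UMIs. Cdc25c, Kif2c, Kif4, Kif20a, Kif23 and Anln had 3 UMIs in their lowest sum of TR1 and TR2, Nuf2 had 4 and Ndc80 had 5. Since a molecule may be counted in both replicates, the counting floor of 3 UMIs was set on the mean of TR1 and TR2, where it corresponded to 10.8 CPM in UT BR3 without TMM factors, and these lowest values lay under it.

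**Figure D1:**
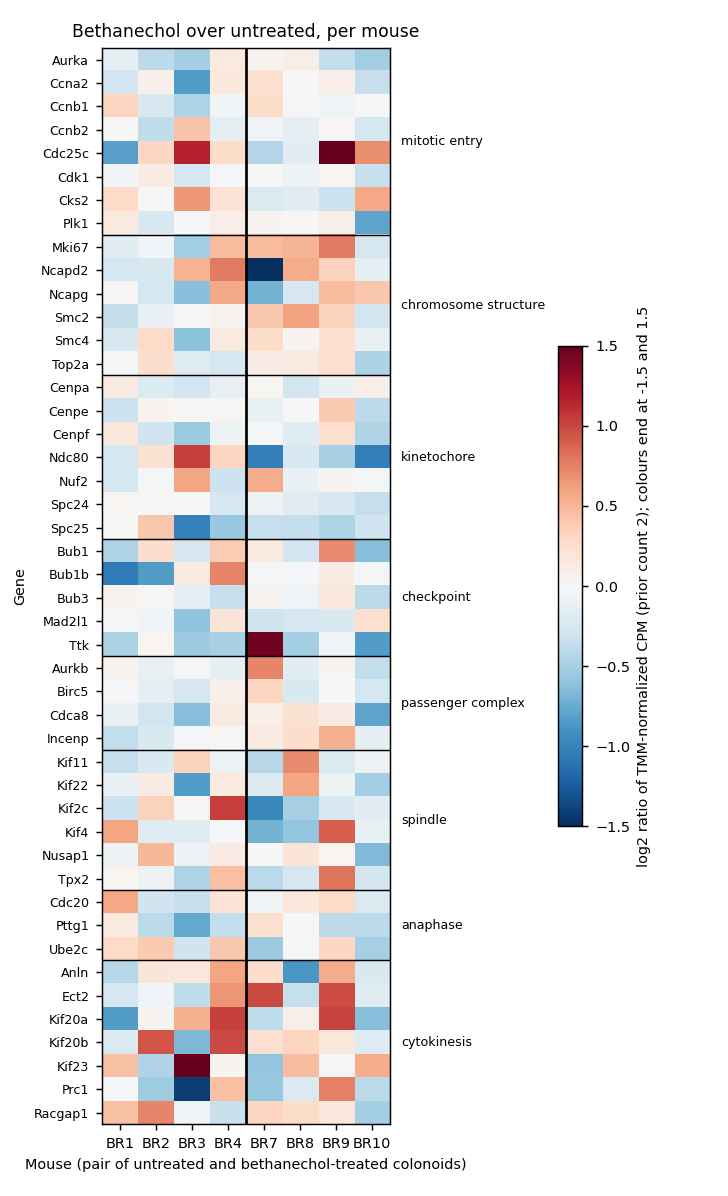
Each cell gives the log2 ratio of Bch over UT for 1 gene (rows, grouped by role) in 1 mouse (columns, with BR1 to BR4 left and BR7 to BR10 right of the thick line), blue where Bch is lower and red where it is higher. The column of BR10 is blue for 39 of 46 genes and that of BR9 for 15, and no row is of 1 colour in all 8 mice.

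Pair by pair, the mitosis genes did not move the same way in the mice. In BR1 to BR4, 30, 26, 31 and 16 of the 46 genes were lower with Bch than in UT, with median log2 ratios of -0.06, -0.04, -0.22 and 0.13. In BR7 to BR10, 22, 28, 15 and 39 genes were lower, with medians of 0.005, -0.04, 0.11 and -0.28. Over all 10280 genes tested, between 47.3% and 50.9% were lower in each mouse. The share of the genes that were lower thus went from 32.6% in BR9 and 34.8% in BR4 to 65.2% in BR1, 67.4% in BR3 and 84.8% in BR10, with mice of both sets at either end. The genes share their library, so the share in a mouse is 1 observation and not 46.

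In the summed level BR3 and BR10 lay apart from the rest, whereas BR1, BR4 and BR9 did not. With Bch it was 0.814 times the UT level in both BR3 and BR10, and between 0.971 and 1.05 times in the other 6 pairs. As a share of all UMIs, without TMM factors, the genes held 0.391% in UT BR10 (95% Wilson interval 0.381% to 0.400%) and 0.284% with Bch (0.275% to 0.294%). In BR3 they held 0.309% in UT (0.289% to 0.330%) and 0.246% with Bch (0.236% to 0.256%). The intervals of UT and Bch did not overlap in these mice, nor in BR1, where Bch was also lower (0.361% to 0.385% in UT, 0.334% to 0.359% with Bch), nor in BR9, where Bch was higher (0.304% to 0.327% in UT, 0.339% to 0.361% with Bch). The share without TMM factors was 10.97% higher with Bch in BR9 and 6.09% higher in BR8, and it differed by -6.98% in BR1. TMM factors moved the log2 ratio by -0.12 in BR8, 0.12 in BR1 and 0.16 in BR10, so that BR1, BR7 and BR8 lay on opposite sides of 0 on the 2 scales. The intervals rest on the mean of TR1 and TR2 and cover counting error only.

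**Figure D2:**
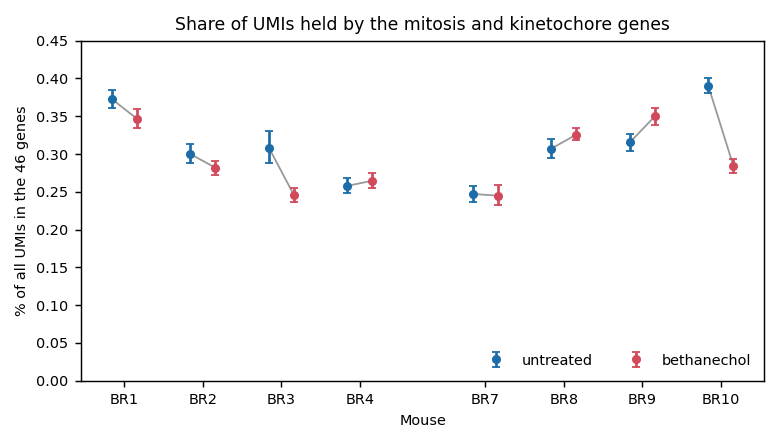
Percent of all UMIs of a sample that fell on the 46 genes, in UT (blue) and Bch (red) samples of each mouse, with grey lines joining the pair and bars giving 95% Wilson intervals (counting error only). BR10 goes from 0.391% to 0.284% and BR3 from 0.309% to 0.246%, while BR9 goes from 0.315% to 0.350%.

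Other lists differed in these 2 pairs as well, though not in the same way. In BR10, 11 of 12 goblet cell markers were higher with Bch and their summed level was 1.90 times that of UT, from 3566 CPM, the lowest of the UT sums, while the S phase list was at 0.906 and the stem cell list at 0.864 times. In the same pair 9 of 11 colonocyte markers (summed level 1.19 times) and 10 of 11 genes known to be induced by tissue dissociation (1.17 times) were higher with Bch. The cell cycle inhibitors were at 1.31 times in BR10, but at 1.43 times in BR7 and 1.26 times in BR1 too. In BR3 the goblet list was at 0.780 times with Bch, the S phase list at 0.913 and the stem cell list at 1.066 times, and the UT sample of BR3 was the shallowest of all. These goblet and stem values of BR3 lay within the range of the other 6 pairs, since the goblet list was at 0.663 times in BR9 and 1.54 times in BR7, and the stem cell list at 1.157 times in BR8. The enteroendocrine list was at 1.43 times in BR3 (5 of 6 genes higher), above 0.731 to 1.20 times in the other 7 pairs, and the dissociation list at 0.826 times. The part of goblet cell, colonocyte, enteroendocrine and dissociation RNA and of depth in the sums of the mitosis genes was not tested.

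In BR7 to BR10, no member passed the test for Bch against UT, with edgeR's quasi-likelihood test, the mouse as a block and Benjamini-Hochberg adjustment over 9515 genes (smallest adjusted p of a member 0.999). The same comparison called 0.0% of all genes tested. At an unadjusted p under 0.05, 2 of the 46 genes (4.35%) were lower, against 1.29% of all genes, and 0 were higher, against 2.49%. DESeq2's Wald test likewise called 0 and had 1 gene at an unadjusted p under 0.05. All 46 genes passed the filter on low counts, and their fitted log2 fold changes ran from -0.68 to 0.53 with a median of -0.04, beside -0.002 over all genes, and 29 lay below 0. Without BR10 this median was 0.06, on the other side of 0. The 95% confidence interval lay within a 2-fold change for 42 of the genes and within 0.5 on the log2 scale for 23, so that larger shifts were outside the intervals of most genes while smaller ones could not be seen.

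The kinetochore genes with the smallest p-values in this set belonged to the NDC80 complex. Ndc80 (chr17:71496100-71526857, minus strand, GRCm38), the microtubule-binding subunit, had levels of 24.3, 29.9, 24.3 and 36.9 CPM in the UT samples of BR7, BR8, BR9 and BR10, and of 11.5, 25.3, 17.0 and 17.6 CPM with Bch. It was lower with Bch in 4 of 4 pairs, but the Bch sample of BR8 lay above the UT samples of BR7 and BR9, so the groups overlapped. Its log2 fold change was -0.68 ± 0.24 (SE, 95% confidence interval -1.16 to -0.20, edgeR adjusted p = 0.999). Spc25 (chr2:69193895-69206194, minus strand), which joins with Spc24 to anchor the complex to the inner kinetochore, had 58.9, 70.0, 74.0 and 70.4 CPM in UT and 46.03, 54.6, 53.2 and 57.0 CPM with Bch. All 4 Bch samples lay below all 4 UT samples, which made Spc25 the only 1 of the 46 genes whose ranges did not overlap in this set. That is 2.17% of the 46, about the same share as the 2.15% of all genes tested. Its log2 fold change was -0.37 ± 0.17 (SE, 95% confidence interval -0.71 to -0.04, edgeR adjusted p = 0.999).

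Spc24 (chr9:21755442-21760303, minus strand) had 136, 130, 170 and 173 CPM in UT and 129, 117, 145 and 136 CPM with Bch, lower in each pair but with overlapping groups. Its log2 fold change was -0.21 ± 0.14 (SE). The fourth subunit, Nuf2 (chr1:169497934-169531464, minus strand), had 8.97, 14.6, 11.7 and 13.9 CPM in UT and 13.6, 13.6, 12.1 and 13.7 CPM with Bch, higher in 2 pairs and lower in 2, with a log2 fold change of 0.09 ± 0.29 (SE). Without BR7 that value was -0.02. The complex was singled out after its values were seen. Kif2c (chr4:117159639-117182639, minus strand), which corrects faulty attachments at the centromere, was the remaining gene lower in 4 of 4 pairs, with 7.05, 13.4, 8.11 and 6.35 CPM in UT and 3.14, 9.14, 6.71 and 5.57 CPM with Bch. The groups of Kif2c overlapped and its log2 fold change of -0.46 ± 0.38 (SE) rested on few UMIs. These 4 genes are 8.7% of the 46, beside 5.59% of all genes tested that were lower in 4 of 4 pairs, and 0 of the 46 were higher in 4 of 4, beside 5.81%.

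In BR1 to BR4 the same genes gave other values. Ndc80 had 28.3, 19.6, 8.73 and 17.3 CPM in the UT samples of BR1, BR2, BR3 and BR4 and 23.4, 23.1, 19.0 and 21.8 CPM with Bch, higher in 3 of 4 pairs, and its UT level in BR3 rested on 5 UMIs. Spc25 had 56.6, 42.5, 59.4 and 55.4 CPM in UT and 56.5, 56.7, 29.0 and 37.1 CPM with Bch. It was lower in BR3 and BR4, higher in BR2 and almost level in BR1. The log2 fold changes were 0.21 ± 0.25 (SE) for Ndc80, -0.22 ± 0.18 for Spc25, -0.06 ± 0.11 for Spc24, -0.09 ± 0.33 for Nuf2 and 0.30 ± 0.38 for Kif2c. Leaving out 1 mouse, Ndc80 ran from 0.09 (without BR3) to 0.43 (without BR1), and Spc25 from -0.47 (without BR2) to -0.05 (without BR3). Nuf2 ran from -0.21 (without BR3) to 0.01 (without BR4), and Kif2c from 0.008 (without BR4) to 0.59 (without BR1).

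**Figure D3:**
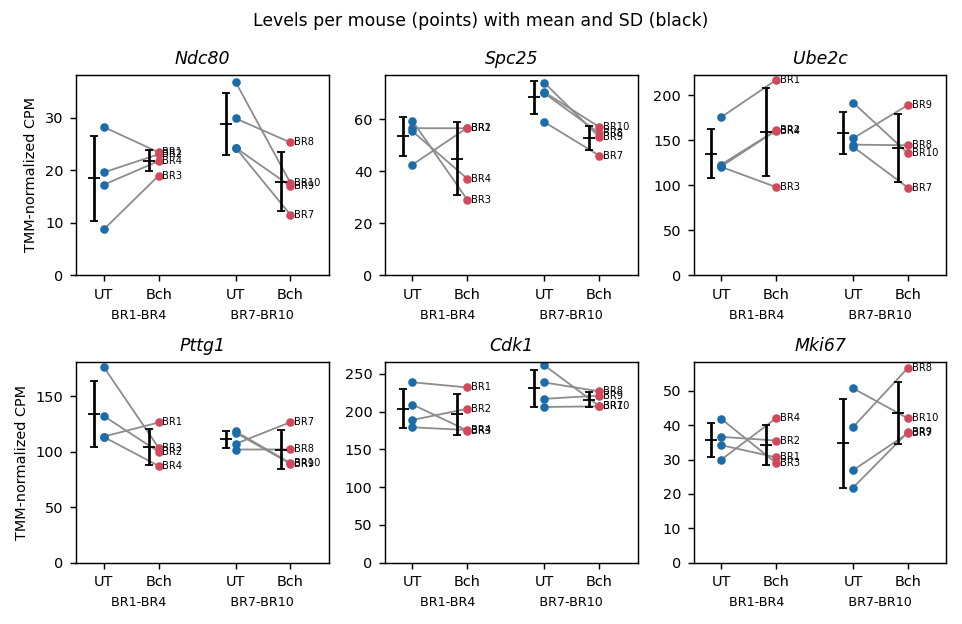
TMM-normalized CPM of 6 genes in the UT (blue) and Bch (red) samples of each mouse, joined by lines, with the mean and SD of each group of 4 in black. For Spc25 in BR7 to BR10 every Bch point (46.03 to 57.0 CPM) lies below every UT point (58.9 to 74.0 CPM), whereas the UT and Bch points of Cdk1 and Mki67 overlap in both sets.

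Across BR1 to BR4, 0 of the 46 genes passed (edgeR, adjusted over 9509 genes, smallest adjusted p of a member 0.464), where 0.021% of all genes tested did. At an unadjusted p under 0.05, 1 member was lower and 1 was higher (2.17% each), against 3.26% and 4.45% of all genes, and DESeq2 called 0 members with 1 at an unadjusted p under 0.05. No member was lower in 4 of 4 pairs (6.85% of all genes) or higher in 4 of 4 (8.22%), and none had ranges that did not overlap (2.85%). The log2 fold changes ran from -0.41 to 0.32 with a median of -0.06, beside 0.001 over all genes, and 28 lay below 0. The 95% confidence interval lay within a 2-fold change for 43 of the genes and within 0.5 on the log2 scale for 22.

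Both of these 2 genes act at anaphase. Ube2c (chr2:164769898-164778822, plus strand) had 176, 123, 120 and 121 CPM in the UT samples of BR1 to BR4 and 217, 161, 98.0 and 161 CPM with Bch. It was higher with Bch in BR1, BR2 and BR4 and lower in BR3, and its log2 fold change was 0.25 ± 0.11 (SE, 95% confidence interval 0.02 to 0.48, edgeR adjusted p = 0.593). Securin, Pttg1 (chr11:43420250-43426251, minus strand), which was singled out after its values were seen, had 114, 132, 176 and 113 CPM in UT and 126, 99.9, 103 and 87.1 CPM with Bch. It was higher in BR1 and lower in the other 3 pairs, with a log2 fold change of -0.33 ± 0.12 (SE, 95% confidence interval -0.58 to -0.08, edgeR adjusted p = 0.464), and without BR3 the value was -0.20. Ube2c in BR7 to BR10 had 143, 145, 152 and 192 CPM in UT and 97.3, 144, 189 and 135 CPM with Bch, lower in 3 of 4 pairs, with a log2 fold change of -0.17 ± 0.15 (SE). Pttg1 there had 107, 102, 117 and 118 CPM in UT and 127, 102, 89.0 and 89.6 CPM with Bch, with a log2 fold change of -0.15 ± 0.15. Leaving out 1 mouse of that set, Ube2c ran from -0.35 (without BR9) to -0.04 (without BR10). Pttg1 ran from -0.26 (without BR7) to -0.05 (without BR10). The third gene of this role group, Cdc20, the activator of the anaphase-promoting complex, had log2 fold changes of 0.08 ± 0.14 in BR1 to BR4 and 0.05 ± 0.15 in BR7 to BR10.

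**Figure D4:**
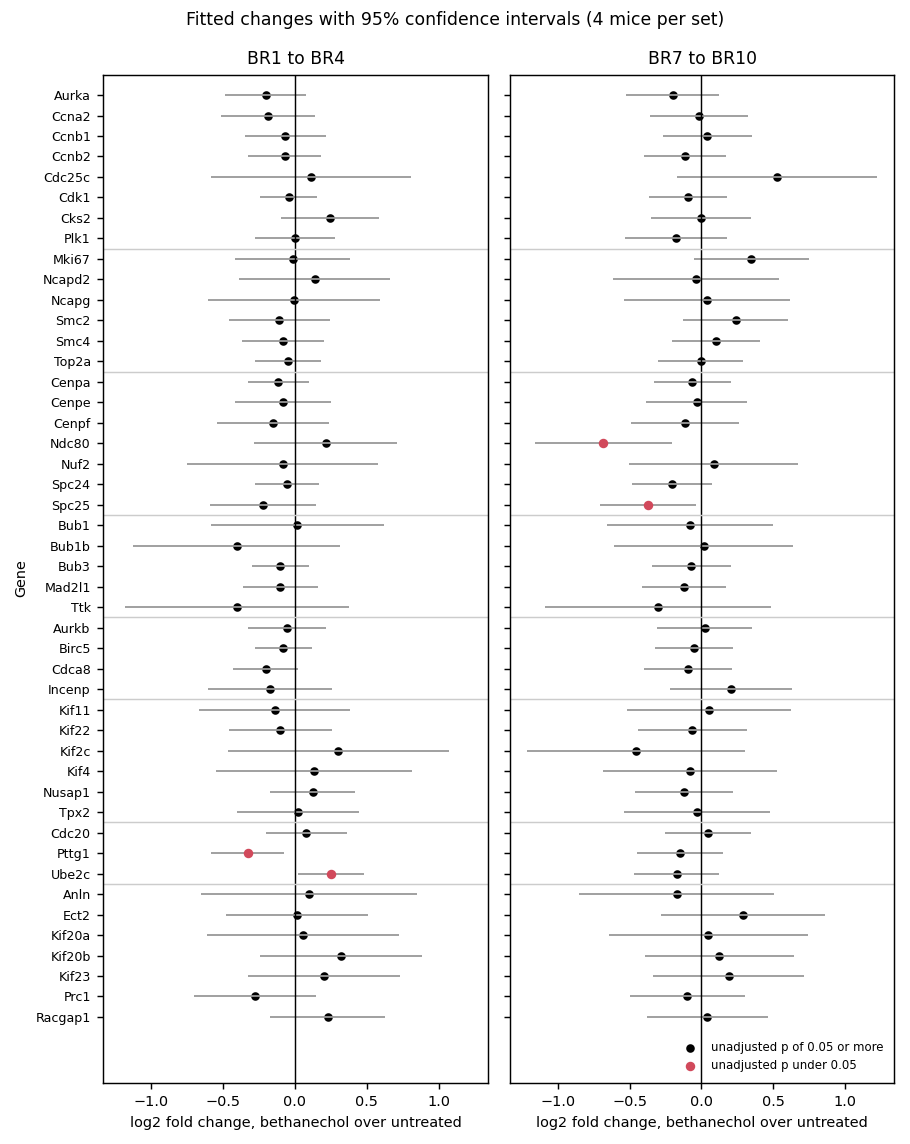
Fitted log2 fold change of Bch over UT for each of the 46 genes in BR1 to BR4 (left) and BR7 to BR10 (right), with 95% confidence intervals, in the order of the role groups and with grey lines between them. Points in red have an unadjusted p under 0.05 (Pttg1 and Ube2c left, Ndc80 and Spc25 right), no gene passed after adjustment, and the intervals of most genes span 0.

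Among the genes of mitotic entry, Cdk1, the kinase that starts mitosis, had 239, 189, 209 and 179 CPM in the UT samples of BR1 to BR4 and 232, 204, 175 and 176 CPM with Bch. The BR7 to BR10 sums were at 206, 239, 217 and 261 CPM in UT and 207, 227, 221 and 207 CPM with Bch. The groups overlapped in both sets, and the log2 fold changes were -0.04 ± 0.10 (SE) and -0.09 ± 0.14. Its partner cyclin B1, Ccnb1, was at 79.3 ± 9.58 CPM (SD, n = 4) in UT and 75.5 ± 21.8 with Bch in BR1 to BR4, and at 80.3 ± 8.83 and 83.0 ± 7.70 in BR7 to BR10. Its log2 fold changes were -0.07 ± 0.14 (SE) and 0.04 ± 0.16, and the kinase Plk1 had 0.002 ± 0.14 and -0.18 ± 0.18. Plk1 in BR10 was 95.2 CPM in UT and 54.4 with Bch, while in BR7, BR8 and BR9 its Bch level was slightly above UT, and without BR10 its fold change was 0.07. Cdc25c, the phosphatase that activates Cdk1, singled out after its values were seen, had the highest fold change of the 46 genes in BR7 to BR10, at 0.53 ± 0.35 (SE, 95% confidence interval -0.17 to 1.22, edgeR adjusted p = 0.999). Its levels there were 10.2, 11.5, 3.55 and 9.67 CPM in UT and 7.32, 10.1, 14.3 and 16.3 CPM with Bch, so it was lower in BR7 and BR8 and higher in BR9 and BR10. In BR1 to BR4 its log2 fold change was 0.11 ± 0.34, and all of these values rest on 355 UMIs over the 16 sums. Without BR9 the value in BR7 to BR10 was 0.13, and without BR3 that in BR1 to BR4 was -0.09. Of the 8 entry genes, 6 had a fold change below 0 in BR7 to BR10 (4 without BR10) and 5 in BR1 to BR4 (3 without BR2).

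Among the genes of chromosome structure, Mki67, which coats mitotic chromosomes and is widely used as a proliferation marker, had 34.2, 36.6, 41.9 and 30.0 CPM in the UT samples of BR1 to BR4 and 30.7, 35.6, 29.0 and 42.1 CPM with Bch. In BR7 to BR10 it had 26.9, 39.5, 21.8 and 50.8 CPM in UT and 37.7, 56.7, 38.0 and 42.0 CPM with Bch. It was higher with Bch in BR7, BR8 and BR9 and lower in BR10, and the groups overlapped. The log2 fold change was -0.02 ± 0.20 (SE) in BR1 to BR4 and 0.35 ± 0.20 in BR7 to BR10 (95% confidence interval -0.05 to 0.75, edgeR adjusted p = 0.999), the latter 0.61 without BR10 and 0.20 without BR9. Top2a, which untangles sister chromatids, had 152, 104, 131 and 155 CPM in the UT samples of BR1 to BR4 and 149, 125, 114 and 129 CPM with Bch. In BR7 to BR10 it had 94.8, 139, 115 and 147 CPM in UT and 103, 153, 136 and 105 CPM with Bch, higher in 3 pairs and lower in BR10 alone. Its log2 fold changes were -0.05 ± 0.11 and -0.004 ± 0.15. The condensin subunit Ncapd2 was the member with the widest pair ratio downwards, 19.9 CPM in UT and 6.28 with Bch in BR7, and it was higher with Bch in BR8 and BR9. That Bch value rested on 6 UMIs over TR1 and TR2, at the counting floor. The log2 fold change of Ncapd2 in BR7 to BR10 was 0.26 without BR7 and -0.29 without BR8. Ncapd2 too was chosen after its values were seen. All 6 genes of this group, which also holds the condensin subunits Smc2, Smc4, Ncapd2 and Ncapg, were higher with Bch in BR9, and 5 of 6 were lower in BR10 and in BR1.

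In the kinetochore group, 6 of 7 genes had a fold change below 0 in each set, with medians of -0.12 in BR7 to BR10 and -0.09 in BR1 to BR4. In the same fits 10 of 12 goblet cell markers were above 0 in BR7 to BR10 (median 0.24) and 8 of 9 dissociation genes below 0 in BR1 to BR4 (median -0.22), with 0 of either passing, and their part in the kinetochore values was not tested. Leaving out 1 mouse, between 4 and 7 of the 7 genes were below 0 in BR7 to BR10 (4 without BR10) and between 4 and 6 in BR1 to BR4 (4 without BR1 or BR4). With Bch their summed level was 0.944, 0.864, 0.926 and 0.846 times that of UT in BR7, BR8, BR9 and BR10. In BR1 it was level, and in BR2, BR3 and BR4 it was 0.981, 0.862 and 0.887 times, so that 7 of 8 pairs were on the lower side. The group means were 567 ± 55.3 CPM (SD, n = 4) in UT and 506 ± 36.7 with Bch in BR7 to BR10, and 466 ± 59.1 and 437 ± 78.9 in BR1 to BR4. Cenpa, the histone of the centromere, had a log2 fold change of -0.11 ± 0.11 (SE) in BR1 to BR4 and -0.06 ± 0.14 in BR7 to BR10, and it made up the largest part of this sum.

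The checkpoint group had 4 of 5 genes below 0 in each set, and its summed level was lower with Bch in 7 of 8 pairs, with BR9 the exception at 1.04 times. Without BR10, however, 1 of the 4 checkpoint genes still tested in BR7 to BR10 was below 0, with Bub3 at 0.06 and Bub1 at 0.18, and without BR3 the count in BR1 to BR4 was 3 of 5. Bub3 had a log2 fold change of -0.10 ± 0.10 (SE) in BR1 to BR4 and -0.07 ± 0.14 in BR7 to BR10, and the kinase Bub1 had 0.02 ± 0.30 and -0.08 ± 0.29. In the chromosomal passenger complex, which releases faulty attachments, Birc5 had 256, 201, 218 and 167 CPM in the UT samples of BR1 to BR4 and 253, 181, 182 and 176 CPM with Bch. Its sums of BR7 to BR10 held 191, 253, 285 and 318 CPM in UT and 240, 215, 284 and 265 CPM with Bch. The groups overlapped in both sets and the log2 fold changes were -0.08 ± 0.10 and -0.05 ± 0.14. The kinase of the complex, Aurkb, was at 76.4 ± 17.9 CPM (SD, n = 4) in UT and 74.3 ± 21.9 with Bch in BR1 to BR4, and at 78.5 ± 21.4 and 79.7 ± 8.00 in BR7 to BR10, with log2 fold changes of -0.05 ± 0.13 and 0.02 ± 0.17. The 4 genes of this complex were often on the same side within a mouse. All 4 were higher with Bch in BR7, and all 4 were lower in BR2, BR3 and BR10.

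The spindle group had Kif11, the motor that pushes the spindle poles apart, with -0.14 ± 0.26 (SE) in BR1 to BR4 and 0.05 ± 0.29 in BR7 to BR10, and Nusap1 with 0.12 ± 0.15 and -0.12 ± 0.17. Kif11 in BR1 to BR4 stayed below 0 whichever mouse was left out (-0.24 to -0.03). The other directions rested on single mice, since Kif11 in BR7 to BR10 was at -0.21 without BR8, and Nusap1 was at 0.09 without BR10 and, in BR1 to BR4, at -0.007 without BR2. All 6 spindle genes were lower in BR10, and their summed level there was 0.725 times that of UT. Among the 7 cytokinesis genes, 6 had a fold change above 0 in BR1 to BR4 and 5 in BR7 to BR10, the other way round from the kinetochore and checkpoint groups, but 3 of 7 without BR4 in the first and 3 of 7 without BR9 in the second. Their summed level with Bch was 1.30 times that of UT in BR4 and 1.42 times in BR9, but 0.765 times in BR3 and 0.825 times in BR10, and the group means were close (158 ± 33.6 CPM in UT and 160 ± 36.0 with Bch in BR1 to BR4, 145 ± 31.4 and 149 ± 25.2 in BR7 to BR10). Prc1 had 51.5, 46.4, 57.6 and 34.0 CPM in the UT samples of BR1 to BR4 and 51.1, 31.8, 21.0 and 47.0 CPM with Bch. The BR7 to BR10 sums were at 45.5, 47.1, 28.4 and 57.1 CPM in UT and 30.3, 40.6, 48.8 and 42.9 CPM with Bch. It was lower in 3 of 4 pairs of each set, with BR4 and BR9 the exceptions, and its log2 fold changes were -0.28 ± 0.21 (SE) and -0.10 ± 0.20. Without BR3 the first was -0.02 and without BR4 -0.56, and the second was 0.04 without BR10 and 0.02 without BR7.

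With all 8 pairs in 1 fit, again 0 of the 46 genes passed (edgeR, adjusted over 10280 genes, smallest adjusted p of a member 0.903), with 0.0% of all genes tested called, and DESeq2 called 0. At an unadjusted p under 0.05, 2 members were lower, Pttg1 and Spc25, against 2.27% of all genes, and 0 were higher, against 3.13%. DESeq2 also had 2 members at that level. Spc25 was lower in 7 of 8 pairs, with BR2 the exception and BR1 at 56.6 CPM in UT and 56.5 with Bch. It was the only 1 of the 46 (2.17%) that was lower in 7 or 8 pairs, which held for 3.76% of all genes. No member was higher in 7 or 8 pairs, which held for 4.3%. The log2 fold change was -0.31 ± 0.12 (SE) for Spc25 and -0.24 ± 0.10 for Pttg1 (edgeR adjusted p = 0.903 for both). The 95% confidence intervals were narrowest here and lay within a 2-fold change for all 46 genes and within 0.5 on the log2 scale for 34.

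Whether the response to Bch differed between the sets was tested as the difference of both fold changes, BR1 to BR4 minus BR7 to BR10. No member passed (edgeR, smallest adjusted p above 0.999, 0 with DESeq2), and 0.0% of all genes did. At an unadjusted p under 0.05 the difference was above 0 for 2 members, Ndc80 and Ube2c, against 1.97% of all genes, and below 0 for none, against 2.41%, and DESeq2 had 1 member at that level. The difference was 0.90 ± 0.34 on the log2 scale (SE, 95% confidence interval 0.21 to 1.59) for Ndc80, 0.41 ± 0.19 for Ube2c and 0.76 ± 0.52 for Kif2c. The UT level of Ndc80 in BR3 rested on 5 UMIs, and without BR3 its log2 fold change in BR1 to BR4 was 0.09. The confidence interval of the difference lay within a 2-fold change for 37 of the 46.

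Untreated colonoids of both sets were compared to show the starting level. Of the 46 genes, 0 passed (edgeR, adjusted over 9159 genes, smallest adjusted p of a member 0.210, 0 with DESeq2), while 1.64% of all genes did. At an unadjusted p under 0.05, 5 members (10.9%) were lower in BR1 to BR4, namely Birc5, Cenpa, Cks2, Ndc80 and Spc25, against 6.66% of all genes, and Tpx2 was higher, against 6.05%. DESeq2 had 2 members at that level. All 7 kinetochore genes had a lower fitted level in BR1 to BR4, with a median difference of -0.28 on the log2 scale. Markers of cell types differed in the same comparison, where 11 of 12 stem cell markers were higher in BR1 to BR4 (median 0.45, 2 passed), and 10 of 11 colonocyte markers (median -0.70, 2 passed), 9 of 11 goblet cell markers and 5 of 6 enteroendocrine markers (0 passed in each) were lower, and their part in the mitosis values was not tested. Cenpa had 178, 139, 183 and 148 CPM in the UT samples of BR1 to BR4 and 188, 208, 216 and 180 CPM in those of BR7 to BR10, which overlapped, and its log2 difference was -0.28 ± 0.13 (SE, edgeR adjusted p = 0.331). For Spc25 the difference was -0.36 ± 0.17 (edgeR adjusted p = 0.374). Kif4 (chrX:100625737-100727214, plus strand), a chromosome-bound kinesin, was the only X-linked gene of the 46 and was picked for this position, with 9.57 ± 3.34 CPM (SD, n = 4) in UT BR1 to BR4 and 13.8 ± 4.24 in UT BR7 to BR10, and its log2 difference was -0.41 ± 0.32 (SE). Sex, kit and source differ together between these sets, so the difference cannot be told apart from any of them.

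Cks2, which encodes a small subunit of the Cdk1 complex, had the smallest p-value in this comparison, but its level is uncertain. It had 51.1, 47.7, 24.4 and 38.6 CPM in the UT samples of BR1 to BR4 and 51.2, 61.1, 74.5 and 58.0 CPM in those of BR7 to BR10. All of the first lay below all of the second, while 8.01% of all genes tested had ranges that did not overlap in either direction, and the log2 difference was -0.52 ± 0.19 (SE, edgeR adjusted p = 0.210). However, 11.8% of its UMIs came from TR1, whereas TR1 held between 45% and 55% for the other 45 genes, and 19.3% of the 65-base windows over its 3′ end occur also in the transcripts of Gm12891, Gm15452 and Gm19945. How reads that match several genes were counted is not given in the sources used here.

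The genes around the list were read from lists of S phase, further mitosis, regulators of mitotic genes and cell cycle inhibitors. Over all 8 pairs 0 genes of these lists passed (edgeR, adjusted over 10280 genes). Of 45 S phase genes tested, 30 had a log2 fold change below 0 (median -0.08), and the smallest p-values belonged to the flap endonuclease Fen1 with -0.32 ± 0.10 (SE, edgeR adjusted p = 0.721) and the replication factor Gins2 with -0.18 ± 0.09. Of 60 further mitosis genes, 40 were below 0 (median -0.08), led by Cks1b with -0.23 ± 0.08 (edgeR adjusted p = 0.833) and the spindle protein Spag5 with -0.82 ± 0.28. Cks1b was lower with Bch in 8 of 8 pairs, and 3.76% of all genes tested were lower in 7 or 8. Pair by pair, 49 of the 60 genes were lower in BR10, against 30 to 38 in each other pair. Of the 45 S phase genes, 29 were lower in BR10, against 20 to 27 in each other pair. Of the 46 genes, 29 had a fold change below 0 over all 8 pairs (median -0.04), and over all genes tested the median was 0.006. At an unadjusted p under 0.05 there were 6 of the 60 further mitosis genes and 1 of the 45 S phase genes, all lower, against 2.27% of all genes lower and 3.13% higher.

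Of 17 regulators tested, 12 were below 0 over all 8 pairs. By set, 13 of 15 were below 0 in BR7 to BR10 (median -0.21), and 4 of 14 in BR1 to BR4 (median 0.06). Pair by pair, however, the medians over the 17 genes were 0.09, -0.18, -0.008 and -0.03 in BR1, BR2, BR3 and BR4, so that only BR1 of these lay above 0, and no regulator passed the test of the difference. Over all 8 pairs, the smallest p-values belonged to Mybl2 (B-Myb), which acts with MuvB on mitotic promoters, with 0.76 ± 0.33 (SE) on at most 9.39 CPM in any sum, and Tfdp2, a partner of E2F factors, with -0.30 ± 0.13. Of 11 cell cycle inhibitors, 9 were above 0 with a median log2 fold change of 0.23, led by the antiproliferative gene Btg1 with 0.26 ± 0.10 and the cyclin G gene Ccng2 with 0.47 ± 0.23. Btg1 was higher with Bch in 6 of 8 pairs, and it was lower in BR7 and in BR10.

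Across mice the mitosis genes went with the other genes of proliferation. Over the 8 UT samples, the log2 summed levels of the 46 genes and of the S phase list had a Pearson's r of 0.961 and a Spearman's rho of 0.976, and r was 0.918 without BR10 and BR4, the samples farthest from the median. With the further mitosis list r was 0.916 and rho 0.976, and r was 0.886 without these 2 samples. The points of a mouse share 1 library and its depth, so these values describe the samples and were not tested. For the change with Bch over the 8 pairs, r with the S phase list was 0.756 and rho 0.643, but r was 0.031 without BR10 and BR3, so that this relation rested on these 2 mice. With the further mitosis list, r for the change was 0.637 and rho 0.595, and r was 0.113 without them.

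**Figure D5:**
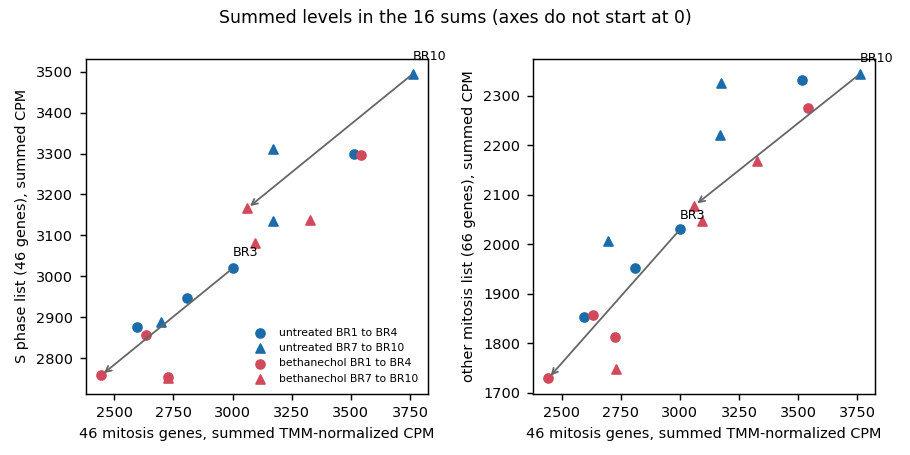
Summed TMM-normalized CPM of the 46 genes (x axis) against that of the S phase list (left) and of the further mitosis list (right), with circles for BR1 to BR4 and triangles for BR7 to BR10, UT in blue and Bch in red. The arrows join UT to Bch of BR3 and BR10, the pairs in which the sum of the 46 genes with Bch was 0.814 times that of UT, and both arrows point down and to the left in both plots.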

How the data were processed

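Per the study's methods, RNA of sorted cells was made into cDNA with barcodes and UMIs, and the authors aligned the reads to GRCm38 with GENCODE M25 in the Drop-seq pipeline. The labels' build field names GRCh38 for these mouse samples, and the methods were followed. The deposited table holds raw UMI counts of 23517 genes in each library, with no scaling applied. A total of 1520 genes, blank for TR2, were taken as 0, and each sample column matched a label.

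From these counts, TR1 and TR2 were summed per mouse and treatment. Genes were filtered with filterByExpr (minimum count 10), scaled with TMM and tested with edgeR 4.0.16 (robust quasi-likelihood, limma 3.58.1, R 4.3.3), with the mouse as a block and Benjamini-Hochberg adjustment over all genes at 0.05. The pairing comes from the labels, since both samples of a BR number come from 1 mouse. Deviations from the group means correlated within a mouse by between -0.02 and 0.26. Levels are TMM-normalized CPM, and pair ratios use a prior count of 2. The code was tested on simulated data.

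The 46 genes and the lists were chosen with earlier results of these data known. Named were, in each set, the genes changed alike in 4 of 4 pairs with the smallest p (up to 4 per direction), the most abundant gene of each role group, 12 well-known genes, the 3 genes with the smallest p for the untreated sets and for the difference of the responses, the 2 genes with the smallest p of each pathway list, and Lgr5. Pttg1, Nuf2, Cdc25c, Ncapd2 and Kif4 are outside this rule and were chosen after their values were seen, as were the genes named for their lowest counts. Alternatives were no block, DESeq2 1.42.0, DESeq2's size factors (RLE), no filter, TR1 or TR2 alone, the mean of both (chosen after seeing the data) and leaving out each mouse. Wilson intervals used the mean of TR1 and TR2. Gene positions came from GENCODE and promoters from RefSeq.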

Additional observations from a re-analysis of the deposited data

Results flagged for a closer look

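In groups of 4 samples, 5 of 84 checks over the named genes found a sample whose gap to the next exceeded Dixon's limit of 0.829 of the group's range, and chance gives this in about 5% of groups. In the UT group of BR1 to BR4, BR1 had 176 CPM of Ube2c, above 120 to 123 in the others. In the Bch group, BR1 had 170 CPM of Spc24 (114 to 123 in the others), 253 CPM of Birc5 (176 to 182) and 118 CPM of Plk1 (55.5 to 65.3). UT BR10 had 263 CPM of Bub3, above 203 to 207 in the other UT samples of its set. For BR1, 13114 cells had been sorted for UT and 3504 for Bch, against 3000 or fewer in all other samples, and the part of this in the values was not tested.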

How the results depend on the processing

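The count of members past the threshold was 0 in all 5 comparisons and under every alternative run. That includes the fits without the replicate block, which gave 0 in BR7 to BR10, in BR1 to BR4 and over all 8 pairs, so the pairing changed no call of a member. The block was not left out for the difference of the responses, and the untreated comparison has none. Calls over all genes moved more: in BR1 to BR4 they were 2 with the block, 0 without it, 14 with DESeq2 and 88 without the filter, and over all 8 pairs 0 and, without the filter, 15. Adjusted p-values that DESeq2 left out as NA were not counted as lost calls. The median log2 fold change of the 46 genes lay between -0.11 and 0.057 in BR7 to BR10, with the value above 0 when BR10 was left out, and between -0.11 and -0.0024 in BR1 to BR4, where the value nearest 0 came without BR3. With a technical replicate alone or their mean, 39 to 46 members passed the filter. Fold changes close to 0 of single genes changed sign, and the cause was not tested. Without the replicate block the value was Top2a 0.013, Cks2 0.021 in BR7 to BR10 and Plk1 -0.043 in BR1 to BR4. With DESeq2 the value was Plk1 -0.0058, Bub1 -0.0044 in BR1 to BR4. With RLE size factors the value was Plk1 -0.0023 in BR1 to BR4. Without the filter the value was Mki67 0.0065 in BR1 to BR4. With TR1 alone the value was Cenpa 0.025, Ccnb1 -0.022, Aurkb -0.0032, Cks2 0.16 in BR7 to BR10 and Aurkb 0.031, Bub1 -0.021 in BR1 to BR4. With TR2 alone the value was Top2a 0.015, Cks2 0.0042 in BR7 to BR10 and Top2a 0.0056, Mki67 0.054, Ccnb1 0.038, Plk1 -0.034 in BR1 to BR4. With the mean of TR1 and TR2 (chosen after seeing the data) the value was Top2a 0.0038, Cks2 0.039 in BR7 to BR10 and Mki67 0.0039 in BR1 to BR4. Leaving out each mouse in turn in BR7 to BR10 gave Prc1 -0.39 to 0.041, Ccnb1 -0.018 to 0.075, Aurkb -0.16 to 0.17, Cks2 -0.23 to 0.11, Cenpa -0.11 to 0.015, Birc5 -0.16 to 0.026, Bub1 -0.34 to 0.18, Kif11 -0.21 to 0.15, Cdc20 -0.042 to 0.15, Bub3 -0.15 to 0.055, Top2a -0.093 to 0.17, Nusap1 -0.23 to 0.091 and Plk1 -0.28 to 0.071. Leaving out each mouse in turn in BR1 to BR4 gave Mki67 -0.21 to 0.10, Plk1 -0.058 to 0.094, Cdc20 -0.13 to 0.22, Nusap1 -0.0071 to 0.22, Ccnb1 -0.22 to 0.025, Bub1 -0.14 to 0.20, Cdk1 -0.10 to 0.015, Spc24 -0.090 to 0.013 and Top2a -0.16 to 0.030. Nuf2 changed sign in the same way, running from -0.021 to 0.17 in BR7 to BR10 and from -0.21 to 0.010 in BR1 to BR4. Depth limits the genes with few UMIs, above all in UT BR3.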
